A study of Mus musculus with 3 samples.

Results

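The genes described here are a set of 10 receptor and adaptor genes of myeloid cells, chosen by name from the receptor families, with earlier results of these data known: the C-type lectins Clec4a2, Clec4a3, Clec4d, Clec4e, Clec4n and Clec7a, the IgG receptors Fcgr1, Fcgr3 and Fcgr4, and the signalling chain Fcer1g. Of these 10, 9 were measured, among 19091 genes in all; Clec7a was not analysed here. They were followed in single liver cells of adult C57BL/6 mice, with no genetic change named, profiled by Drop-seq, in which each captured mRNA carries a barcode of its cell and a unique molecular identifier (UMI). The control library came from livers after sham surgery, taken on day 1, and the 2 other libraries from livers taken 1 day or 7 days (day 1 and day 7) after irreversible electroporation (IRE), in which electric pulses kill cells in a small area of the liver lobe. By the labels the injury was 8 pulses of 50 ms at 75 V, with 1 s between pulses, and the tissue was a 4 mm punch of the electroporated area or of the same area left uninjured in controls. The labels and the study's methods do not give the same voltage, and whether the sham operation touched the control lobe is not stated. Each library was pooled from 3 livers, so that animals cannot be compared.

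C-type lectin receptors of this kind read sugars and glycolipids of microbes and of dying cells, and the Clec4 genes among the members lie in 1 gene cluster. Clec4e (Mincle), Clec4d (MCL) and Clec4n (Dectin-2) have no signalling motif of their own and pair with the Fc receptor common gamma chain encoded by Fcer1g, whose activation motif recruits the kinase Syk and, through Card9, turns on cytokine genes. Clec4a2 (DCIR) carries an inhibitory motif, and Clec4a3 is its close relative. The activating IgG receptors use the same gamma chain: Fcgr1 (CD64) binds monomeric IgG, while Fcgr3 and Fcgr4 bind immune complexes, and Fcgr2b, which is not a member, is the inhibitory IgG receptor. In the liver these receptors are known from Kupffer cells, monocytes and neutrophils.

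In the RefSeq annotation of GRCm38.p6, Clec4a3, Clec4a2, Clec4n, Clec4d and Clec4e follow each other on chromosome 6, with Clec4a4 and Clec4b1 between the first pair and Clec4b2 before Clec4n. Fcgr4 and Fcgr3 are neighbours on chromosome 1, with Fcgr2b next to Fcgr4 and Fcer1g 7 genes beyond Fcgr3, whereas Fcgr1 is on chromosome 3. The 250 bases before the RefSeq start sites of the adjacent genes Clec4d and Clec4e, which differed most between libraries, and of the shared chain Fcer1g are shown 5′ to 3′, with matches to any of 4 motifs on either strand in capitals. For PU.1, a transcription factor of myeloid cells, the core GAGGAA was searched. For the C/EBP factors the letters were TTGCNNAA. For AP-1 they were TGANTCA. The TATA box was searched as TATAAA.

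Clec4d (chr6:123261857-123262106, plus strand): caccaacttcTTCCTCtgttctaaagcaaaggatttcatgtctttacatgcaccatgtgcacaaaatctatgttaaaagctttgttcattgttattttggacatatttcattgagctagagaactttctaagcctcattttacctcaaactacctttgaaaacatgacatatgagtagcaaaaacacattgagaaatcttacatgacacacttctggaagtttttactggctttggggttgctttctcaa

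Clec4e (chr6:123289872-123290121, minus strand): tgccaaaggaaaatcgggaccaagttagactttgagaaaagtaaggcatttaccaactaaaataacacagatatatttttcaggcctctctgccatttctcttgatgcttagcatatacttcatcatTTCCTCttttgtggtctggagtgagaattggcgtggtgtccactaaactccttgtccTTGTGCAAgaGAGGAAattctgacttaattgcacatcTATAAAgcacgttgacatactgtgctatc

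Fcer1g (chr1:171234350-171234599, minus strand): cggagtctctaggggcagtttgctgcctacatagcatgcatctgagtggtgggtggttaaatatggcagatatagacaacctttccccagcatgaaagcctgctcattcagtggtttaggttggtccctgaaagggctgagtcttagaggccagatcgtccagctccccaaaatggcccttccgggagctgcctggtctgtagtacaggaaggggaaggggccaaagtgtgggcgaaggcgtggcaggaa

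The upstream window of Clec4e held the PU.1 core at 2 places, a C/EBP match that begins 66 bases before the start and ends 2 bases short of the nearer core, and a TATA box 29 bases before the start. The window of Clec4d held the PU.1 core once, 240 bases before the start, and that of Fcer1g held none of the 4 motifs. Among the 10 start sites that RefSeq lists for 8 of the members (Clec4n had no entry), 7 windows held the PU.1 core, against 23.3% of 32851 windows of all genes. C/EBP was matched in 3 windows against 9.56% of all, the TATA box in 2 against 12.4%, and AP-1 in 0 against 6.75%. Clec4a3 and Fcgr3 each gave 2 overlapping windows, so that the 10 windows are not separate pieces of sequence.

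With at least 200 detected genes required of a cell, 10386 were kept in control, 9253 on day 1 and 5624 on day 7, with a median of 595.0, 509.0 and 456.5 UMIs per cell and 8013800, 6107866 and 3058967 UMIs in all. Mitochondrial genes took 20.5% of the UMIs in control, 21.7% on day 1 and 4.10% on day 7, and hepatocyte markers took 0.161%, 2.69% and 0.0381%, so that few hepatocytes of the labelled liver tissue were captured. The libraries shared between 44 and 149 cell barcodes pairwise, at most 2.65% of the smaller library. With 1 library per condition no test between conditions was possible: levels are UMIs per 1000000 UMIs of the library or cell class (CPM), with exact Poisson intervals, and ratios carry conditional binomial intervals, all at 95% and all for counting error only.

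The 9 members together gave 1975 CPM in control (interval 1944 to 2006), 1377 on day 1 (1347 to 1406) and 6818 on day 7 (6725 to 6911). The sum on day 1 was thus 0.697 times that of control (0.679 to 0.716), and on day 7 it was 3.45 times control (3.38 to 3.52) and 4.95 times day 1 (4.83 to 5.08). In a sum over a library, a change in the number of cells of a type and a change in RNA per cell cannot be told apart. Fcer1g alone gave 47.8%, 55.9% and 44.8% of the members' UMIs in the 3 libraries; without it the 8 receptors were 0.588 times control on day 1 and 3.65 times control on day 7. With mitochondrial UMIs left out of the totals, the sum on day 7 was 2.86 times control, and scaled by the median gene it was 4.09 times.

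On day 7, 6 of the 9 members were at least 2-fold above control, a share to be read against 8.79% of the 12074 genes with at least 20 UMIs in that pair of libraries; none was 2-fold lower, as were 26.3% of those genes. The median log2 ratio was 1.76 over the members and -0.29 over all those genes. On day 1, 2 of the 9 members, Clec4d and Clec4e, were at least 2-fold below control, against 7.14% of 12988 genes, and none was 2-fold higher, against 13.6%; the median log2 ratio was -0.68 over the members and 0.05 over all genes. Between the injured libraries all 9 members were at least 2-fold higher on day 7 than on day 1, against 11.3% of 12116 genes. With mitochondrial UMIs left out of the totals the count was 7, with Clec4a3 at 1.83 and Fcgr4 at 1.93 times day 1, and with gates weighted as in control it was 8.

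**Figure D1:**
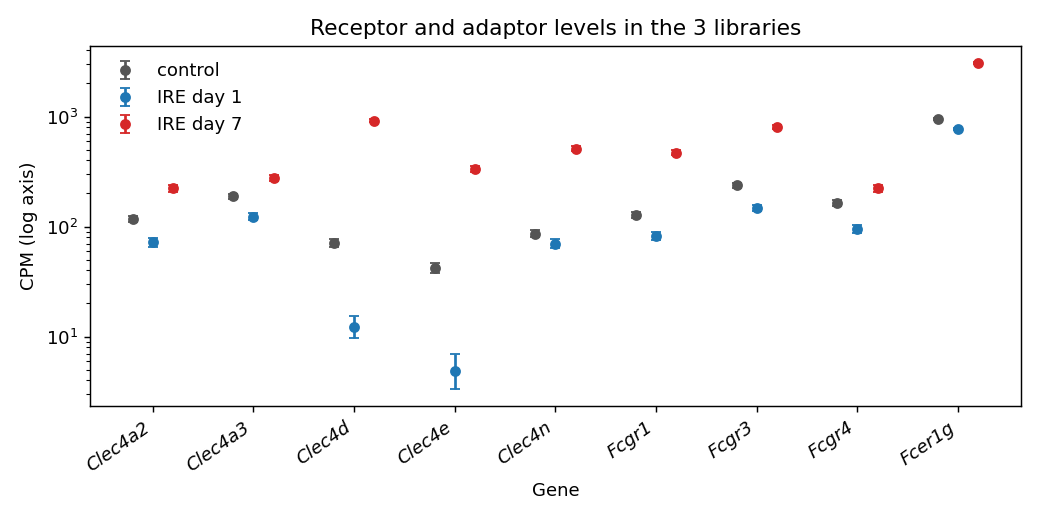
CPM (log axis) of the 9 measured genes in the control library, day 1 and day 7, with exact 95% Poisson intervals. Every gene is highest on day 7 and lowest on day 1, and the spread between libraries is widest for Clec4d, from 12.3 to 919.

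Clec4d, a partner of Mincle in the receptor complex, was counted at 71.3 CPM in control (571 UMIs), 12.3 on day 1 (75 UMIs) and 919 on day 7 (2811 UMIs). The ratio to control was 0.172 on day 1 (0.134 to 0.220) and 12.9 on day 7 (11.8 to 14.1). Clec4e, the receptor for mycobacterial cord factor and for the nuclear protein SAP130 of dead cells, was at 42.3, 4.91 and 335 CPM in the same order. Its ratio to control was 0.116 on day 1 (0.0771 to 0.169, from 30 UMIs) and 7.93 on day 7 (7.01 to 8.99). Over the whole library both genes were thus lowest 1 day after injury and highest after 7 days. From day 1 to day 7 they differed by 74.8-fold (59.5 to 95.4) and 68.3-fold (47.5 to 102). With gates weighted as in control these were 26.6-fold and 19.7-fold.

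Clec4n, a receptor for fungal mannans, was at 86.1 CPM in control, 69.9 on day 1 and 511 on day 7, a ratio to control of 0.812 (0.718 to 0.917) and then 5.94 (5.43 to 6.50). The inhibitory Clec4a2 was at 117, 71.9 and 224, and its relative Clec4a3 at 188, 123 and 276 CPM. On day 7 these were 1.92-fold (1.74 to 2.12) and 1.47-fold (1.35 to 1.60) above control, below the ratios of Clec4n, Clec4d and Clec4e by the intervals. On day 1 they were 0.616 and 0.657 times control, below the ratio of Clec4n.

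Among the IgG receptors Fcgr3 was counted at 237, 148 and 804 CPM, and Fcgr1 at 127, 82.2 and 471. Their ratios of day 7 to control were 3.39 (3.20 to 3.61) and 3.71 (3.43 to 4.03). Fcgr4 was at 164 in control (155 to 173), 94.8 on day 1 (87.2 to 103) and 224 on day 7 (207 to 241), with a ratio of day 7 to control of 1.37, below that of the other Fc receptors by more than the counting intervals. Fcer1g was at 943, 769.8 and 3053 CPM, 0.816 times control on day 1 (0.787 to 0.846) and 3.24 times control on day 7 (3.14 to 3.34).

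To place the receptors in cells, each cell was gated into 1 of 21 classes by markers, none of which is a member. A marker counted only where its share of the cell's UMIs was above its share in the barcodes under 200 genes of the same library, and a gate needed at least 3 markers of its class and more than of any other. The neutrophil gate held 326 control cells, 95 on day 1 and 1183 on day 7; the monocyte gate held 999, 50 and 1090, and the Kupffer cell gate 1321, 1963 and 149. The wound macrophage gate, named for its markers (Arg1, Ccl2, Ccl7, Ccl12, Gpnmb, Trem2, Mmp12, Ms4a7, Fabp5 and Thbs1), held 624, 16 and 803 cells. Its control cells were led by Mmp12, Gpnmb and Fabp5 and its cells on day 7 by Ccl7, Ccl12 and Ccl2, so that the gate did not hold the same kind of cell in both. Between 39.5% and 45.9% of cells met no gate. Kupffer cells held 28.3% of the members' UMIs in control and 56.6% on day 1, beside 16.7% and 23.7% of all UMIs. Ungated cells held 33.1% and 25.0% of them, beside 37.0% and 40.4% of all UMIs. On day 7 monocytes held 25.5% of the members' UMIs, neutrophils 19.0%, wound macrophages 17.3%, Kupffer cells 3.66% and ungated cells 33.7%. Their shares of all UMIs on day 7 were close to these, at 23.3%, 18.4%, 16.2%, 4.09% and 34.5% in the same order.

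Free RNA in the droplets was gauged from T cells, most of which lack these receptors, although some T cells make Fcer1g. In the T cell gate of 229, 90 and 67 cells the 8 receptors gave 33, 9 and 22 UMIs, or 156, 97.4 and 608 CPM, and Fcer1g gave 273, 346 and 691. On day 7 the T cell gate thus held 3.03 times the members' level of control (2.08 to 4.35), and the sinusoidal endothelial gate, with 48 cells, 3.43 times (2.57 to 4.50). The neutrophil transcript S100a8 moved in the same way, from 495 to 7435 CPM in the T cell gate. In the barcodes under 200 genes all 9 members were above control on day 7 by the interval of the ratio, as were 36.1% of 8494 genes. The T cell level of a gene in the same library is set beside its gate levels, and a gate level less the T cell level is called the excess over T cells. T cell levels in control and on day 7 were 14.1 and 0 CPM for Clec4a2, 28.3 and 55.3 for Clec4a3, 9.43 and 55.3 for Clec4n, 33.0 and 27.6 for Fcgr1, 23.6 and 138 for Fcgr3, and 18.9 and 82.9 for Fcgr4, each from 0 to 7 UMIs.

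**Figure D2:**
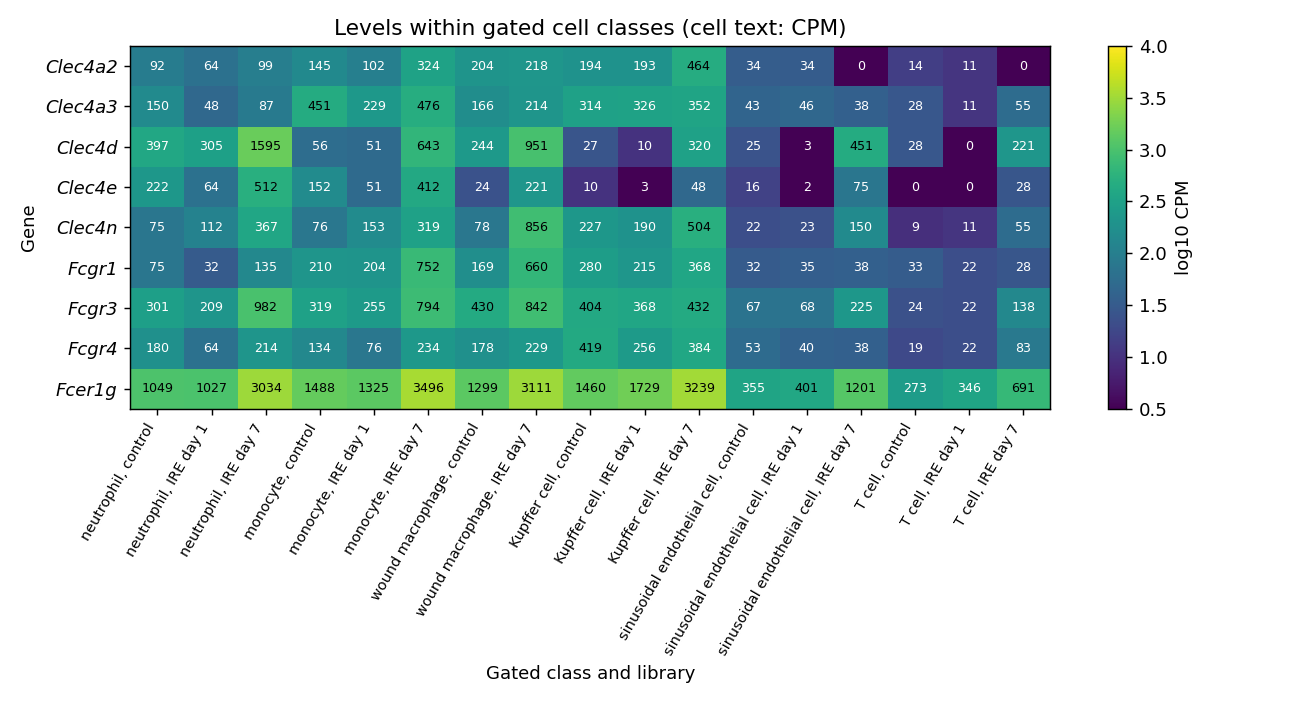
CPM of the 9 genes (rows) in 6 gated classes by library (columns), with the colour on a log10 scale and the value printed in each cell; the wound macrophage gate on day 1 held 16 cells and is left out. Clec4d is highest in the neutrophil gate on day 7 at 1595, Fcgr1 in the monocyte gate at 752, and the T cell columns show the level in a class that is expected to lack these receptors.

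In control Clec4d was highest in neutrophils. Its level was 397 CPM in the neutrophil gate (95 UMIs), 244 in wound macrophages, 56.0 in monocytes and 26.8 in Kupffer cells, beside 28.3 in T cells. The monocyte level in control was not above that of T cells by the interval of their ratio (1.98, 0.832 to 5.72). The neutrophil level was 7.09 times that of monocytes (4.83 to 10.6). On day 7 the levels were 1595 in neutrophils, 951 in wound macrophages, 643 in monocytes and 319.9 in Kupffer cells, beside 221 in T cells. The order of neutrophils, wound macrophages and monocytes was the same in both libraries, each step beyond the counting intervals. Within gates the ratio of day 7 to control was 4.02 in neutrophils (3.25 to 5.02), 3.89 in wound macrophages (3.30 to 4.61) and 11.5 in monocytes (8.27 to 16.4). As excess over T cells these ratios were 3.73, 3.38 and 15.2, the last on a control excess of 27.7 CPM. In the Kupffer cell gate the ratio was 11.9, but on day 7 Clec4d stood at 1.45 times the T cell level (0.668 to 3.58), and in control at 0.948 times, so that Clec4d above the T cell level was not detectable there at this depth. On day 1 Clec4d was at 0.768 times control in neutrophils (0.443 to 1.27, from 19 UMIs). In monocytes it was at 0.910 times (0.106 to 3.51, from 2 UMIs). These gates held 3.14% and 9.62% of cells in control and 1.03% and 0.540% on day 1. From day 1 to day 7 Clec4d differed by 5.23-fold in neutrophils (3.33 to 8.73).

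Clec4e was shared by neutrophils and monocytes. In control it was at 222 CPM in neutrophils and 152 in monocytes, at 24.0 in wound macrophages and at 10.4 in Kupffer cells, with 0 UMIs in T cells, where a count of 0 allows up to 14.1 CPM. On day 7 it was at 512 in neutrophils, 412 in monocytes, 221 in wound macrophages and 48.0 in Kupffer cells, with 1 UMI in T cells. The Kupffer cell level on day 7 was not above that of T cells by the interval of their ratio (1.74, 0.211 to 79.8). The rise from control was 2.31-fold in neutrophils (1.72 to 3.16) and 2.70-fold in monocytes (2.16 to 3.41). In wound macrophages it was 9.21-fold (5.68 to 15.7), beyond both of the others by the intervals. Clec4e in wound macrophages was 0.157 times the monocyte level in control (0.0924 to 0.255) and 0.535 times on day 7 (0.426 to 0.669). On day 1 Clec4e was at 0.290 times control in neutrophils (0.0762 to 0.787, from 4 UMIs). In monocytes it was at 0.335 times (0.0400 to 1.24, from 2 UMIs). From day 1 to day 7 Clec4e differed by 7.98-fold in neutrophils (3.08 to 29.5).

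The gate with most Clec4n was not the same in both libraries. In control Clec4n was highest in Kupffer cells at 227 CPM (305 UMIs), 2.98 times the monocyte level (2.22 to 4.07), and stood between 75.2 and 77.8 in neutrophils, monocytes and wound macrophages. On day 7 it was highest in wound macrophages at 856, followed by Kupffer cells at 504, neutrophils at 367 and monocytes at 319. The ratio to control was 11.0 in wound macrophages (8.45 to 14.5), 4.88 in neutrophils, 4.20 in monocytes and 2.22 in Kupffer cells (1.66 to 2.92). The excess over T cells gave 11.7, 4.74, 3.96 and 2.06. Among neutrophil gated cells on day 7 Clec4n was at 648 CPM in cells with 3 neutrophil markers and at 316 in cells with 4. In cells with 5 or more it was at 287 (233 to 350.3), against 76.7 in such cells of control (40.8 to 131, from 13 UMIs).

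Clec4a3 in the monocyte gate was at 451 CPM in control and 476 on day 7, a ratio of 1.06 (0.903 to 1.24). The Kupffer cell level was 0.695 times that of monocytes in control (0.599 to 0.807), while on day 1 (1.42, 0.743 to 3.13) and on day 7 (0.739, 0.527 to 1.01) the interval included 1. In the Kupffer cell gate it was at 314, 326 and 352 in the 3 libraries, levels that differed by less than their counting intervals. In the neutrophil gate it was lower on day 7, with 86.8 CPM after 150.5 in control, a ratio of 0.577 (0.368 to 0.914). The excess over T cells gave 0.258 there, and the day 7 level was not above that of T cells by the interval (1.57, 0.412 to 13.3). In monocytes, wound macrophages and Kupffer cells the excess of Clec4a3 gave 0.996, 1.15 and 1.04. Clec4a2 differed from it in Kupffer cells and monocytes, where it was 2.39-fold (1.77 to 3.19) and 2.23-fold (1.76 to 2.85) above control on day 7, at 464 and 324 CPM, and 2.58 and 2.47 as excess over T cells. In the wound macrophage gate the ratio of Clec4a2 was 1.07 (0.835 to 1.37). The whole-library rise of Clec4a3 was thus not met in any of these 4 gates beyond the counting intervals, since its interval in wound macrophages was 0.991 to 1.67 and in Kupffer cells 0.803 to 1.53.

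Fcgr1 was higher in monocytes and macrophages than in neutrophils. In control it was at 280.1 CPM in Kupffer cells, 209.8 in monocytes, 169 in wound macrophages and 75.2 in neutrophils. On day 7 it was at 752 in monocytes and 659.5 in wound macrophages, which did not differ beyond their intervals (ratio 0.877, 0.762 to 1.01), at 368 in Kupffer cells and at 135 in neutrophils, beside 27.6 in T cells. The neutrophil level was 0.359 times that of monocytes in control (0.207 to 0.587) and 0.179 times on day 7 (0.139 to 0.228). It was above the T cell level by the interval of the ratio in neither library (2.28, 0.908 to 6.46, and 4.87, 0.849 to 195, the latter against 1 UMI in T cells). Among neutrophil gated cells on day 7 Fcgr1 was at 190.0 CPM in cells with 3 neutrophil markers (22 UMIs), at 251 in cells with 4 (27 UMIs) and at 79.2 in cells with 5 or more (27 UMIs), whereas Clec4d was at 1624, 1312 and 1675.

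Fcgr3 was spread over all 4 myeloid gates. In control its levels were 301 in neutrophils, 319 in monocytes, 404 in Kupffer cells and 429.9 CPM in wound macrophages. On day 7 the levels were 982 in neutrophils, 842 in wound macrophages, 794 in monocytes and 432 in Kupffer cells, beside 138 in T cells. Neutrophils were now above wound macrophages (1.17 times, 1.03 to 1.33), having been below them in control (0.700 times, 0.536 to 0.904). The ratio to control was 3.26 in neutrophils (2.55 to 4.23), 2.49 in monocytes (2.13 to 2.92), 1.96 in wound macrophages (1.70 to 2.26) and 1.07 in Kupffer cells (0.793 to 1.42), where the excess over T cells gave 0.772.

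In control Fcgr4 was highest in Kupffer cells, at 419 CPM against 134 to 179.7 in the other 3 gates. One day after injury it was at 256 in Kupffer cells, 0.611 times control (0.535 to 0.698). In that gate on day 1 only Clec4d (0.387, from 15 UMIs) among the 8 members with at least 20 UMIs was past 2-fold lower, against 4.10% of 9131 genes. Clec4d in Kupffer cells of control was not above the T cell level (0.948 times, 0.396 to 2.75), so that a change in Kupffer cells is not shown by this ratio. Clec4a2, Clec4a3 and Fcgr3 did not differ beyond the intervals, with ratios of 0.996, 1.04 and 0.911. Fcgr1 was at 0.768 times control there (0.659 to 0.895) and Fcer1g at 1.18 times (1.12 to 1.26). On day 7 Fcgr4 was 1.75-fold above control in monocytes (1.35 to 2.28), while the intervals in neutrophils, wound macrophages and Kupffer cells included 1. As excess over T cells its ratio was below 1 in these last 3 gates (0.818, 0.913 and 0.753) and 1.32 in monocytes. Against 3 UMIs in T cells, Fcgr4 on day 7 was above the T cell level by the interval in Kupffer cells (4.63, 1.49 to 23.2) and not in neutrophils, monocytes or wound macrophages (2.59 to 2.82 times).

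Fcer1g was counted at high levels in each myeloid gate. Its neutrophil level was below that of monocytes in control (0.705 times, 0.612 to 0.810) and on day 7 (0.868 times, 0.816 to 0.923). In control it was at 1049 CPM in neutrophils, 1299 in wound macrophages, 1459.5 in Kupffer cells and 1488 in monocytes, and on day 7 at 3034, 3111, 3239 and 3496. The ratios were 2.89 in neutrophils (2.53 to 3.32), 2.39 in wound macrophages (2.21 to 2.59), 2.22 in Kupffer cells (1.99 to 2.47) and 2.35 in monocytes (2.18 to 2.53), and 3.02, 2.36, 2.15 and 2.31 as excess over T cells. The T cell gate itself held 2.53 times as much on day 7 as in control. In control Fcer1g was also counted in NK cells at 849 and in plasmacytoid dendritic cells at 678 CPM, whereas in conventional dendritic cells of type 1 it was at 187, and these held between 1 and 5 UMIs of each receptor.

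**Figure D3:**
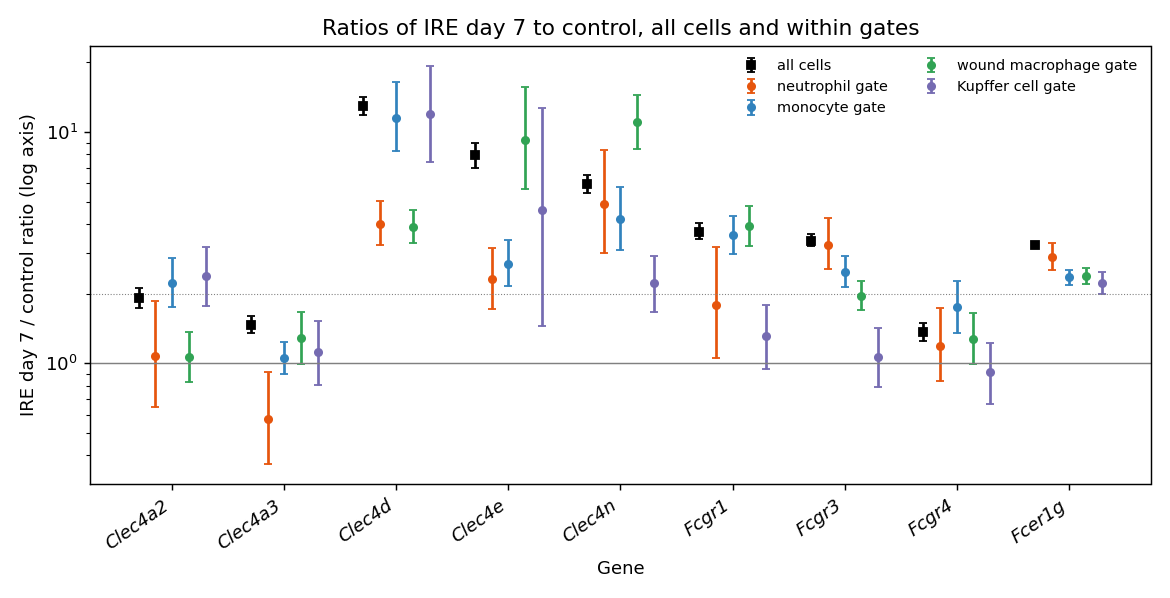
Ratio of the level on day 7 to that in control (log axis) for each gene, over all cells (squares) and within 4 gates (circles), with 95% conditional binomial intervals; the solid line marks 1 and the dotted line 2. Clec4n in wound macrophages stands at 11.0 and Clec4a3 in neutrophils at 0.577, while Fcer1g lies between 2.22 and 2.89 in the 4 gates.

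Counted over gates, 5 of 9 members were at least 2-fold higher on day 7 in neutrophils (Clec4d, Clec4e, Clec4n, Fcgr3 and Fcer1g) beside 20.04% of 4191 genes. In monocytes 7 of 9 were, all but Clec4a3 and Fcgr4, beside 13.6% of 6244 genes. In wound macrophages 5 of 9 were, with Fcgr1 in place of Fcgr3, beside 13.6% of 6302 genes. In Kupffer cells 5 of 9 were, namely Clec4a2, Clec4d, Clec4e, Clec4n and Fcer1g, beside 10.01% of 6804 genes, but there Clec4d and Clec4e, from 40 and 6 UMIs on day 7, were not above the T cell level by the interval, and the excess of Clec4e gave 1.95. Clec4n and Fcer1g were past 2-fold in all 4 gates, also as excess over T cells, Clec4d and Clec4e in the 3 gates other than Kupffer cells, and Clec4a3 and Fcgr4 in none. In Kupffer cells these excess ratios were close to 2, at 2.06 for Clec4n and 2.15 for Fcer1g. Excess ratios carry no interval, and the T cell level of Clec4n came from 2 UMIs in control and 2 on day 7. Mitochondrial UMIs, 20.5% of the control library and 4.10% of the day 7 library, were kept in the gate totals for these counts. The level of the sinusoidal endothelial gate was not subtracted. On day 7 it held Fcer1g at 1.74 times the T cell level (0.998 to 3.06) and Clec4n at 2.72 times (0.389 to 30.0, from 4 UMIs). Clec4d was at 2.04 times the T cell level there (0.766 to 5.75, from 12 UMIs).

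The 2 kinds of cell that the wound macrophage gate held could be set apart by their own markers. Cells with Gpnmb, Trem2 or Mmp12 and no Ccl2, Ccl7 or Ccl12 numbered 535 in control and 59 on day 7. In these, Clec4d was at 231 CPM in control (196 to 269.6) and 807 on day 7 (536 to 1166), Clec4n at 69.7 (51.4 to 92.4) and 489.7 (285 to 784), and Fcgr1 at 149.5 (122 to 181) and 605 (374 to 925). Fcgr4 was at 179 in control and, from 3 UMIs, at 86.4 on day 7 (17.8 to 253). The 513 cells on day 7 with Ccl2, Ccl7 or Ccl12 and none of the first 3 markers held Clec4n at 968 CPM (859 to 1087), above the 489.7 of the first kind by the intervals. In cells of the first kind Clec4d, Clec4n and Fcgr1 were thus above control on day 7 by the intervals, from 28, 17 and 21 UMIs. No background was subtracted here. The whole gate had a median of 534.0 UMIs per cell on day 7 and 1066 in control, so that a marker could more easily be missed on day 7. Whether the cells of the first kind were the same in both libraries was not tested.

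Shares of cells with a UMI followed the levels once cells had been thinned to 300 UMIs each. In a library, between 1 and 61 cells of a myeloid gate were shallower and dropped out. Clec4d was found in 13.4% of control neutrophils (9.87 to 17.6) and in 37.5% on day 7 (34.7 to 40.4); unthinned the shares were 23.9% and 48.7%. Clec4n was found in 3.05% of wound macrophages in control (1.85 to 4.72) and in 20.7% on day 7 (17.9 to 23.8), unthinned 8.49% and 32.8%. Fcgr1 was found in 7.63% and 18.8% of monocytes, and in 1.87% and 3.03% of neutrophils, the last pair within their intervals. Unthinned, the shares of Fcgr1 were 13.2% and 33.0% of monocytes and 4.29% and 5.58% of neutrophils. Fcer1g was found in 34.5% of control monocytes and 61.0% on day 7, unthinned 57.6% and 81.7%.

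T cells thinned in the same way, of which 228 remained in control and 57 on day 7, gave the background of these shares. Clec4d was found in 1.32% of them in control and 5.26% on day 7, Clec4n in 0.439% and 3.51%, and Fcer1g in 9.21% and 19.3%. In the 41 thinned cells of the sinusoidal endothelial gate on day 7, Clec4d was found in 12.2% (4.08 to 26.2). Clec4n was found in 2.44% of these 41 cells and Fcer1g in 34.1% (20.1 to 50.6). Fcgr1 was found in 1.32% of control T cells and in 0 of 57 on day 7, which allows a share of up to 5.26%, so that the shares of Fcgr1 in neutrophils could not be told from background. Median depths in control and on day 7 were 747.0 and 492.0 UMIs in T cells, 624.0 and 434.0 in neutrophils, 594.0 and 567.5 in monocytes, and 1066 and 534.0 in wound macrophages.

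Members found in the same cells were counted after thinning in 98 combinations of a pair, a gate and a library, of which only a few are given here. Of the neutrophils on day 7 with a Clec4d UMI after thinning, 59.6% also had Fcer1g (54.8 to 64.3), and of those without Clec4d 57.1% had it (53.3 to 60.8). Clec4e was found in 13.8% of neutrophils with Clec4d and in 14.3% of those without on day 7, while in control it was found in 20.9% (10.0 to 36.0, of 43 cells) and 6.47% (3.88 to 10.0). In the same control cells Fcer1g was found in 39.5% of those with Clec4d (25.0 to 55.6) and in 21.6% of those without (16.9 to 26.9). In wound macrophages on day 7 Clec4n was found in 26.3% of cells with Clec4d (19.9 to 33.6) and in 19.1% of the others (16.0 to 22.5). In control Kupffer cells Fcgr4 was found in 5.30% of cells with Fcgr3 (2.31 to 10.2) and in 12.0% of the rest (10.2 to 14.0). On day 1 the order in Kupffer cells was the other way, with 9.23% (5.56 to 14.2) and 7.08% (5.91 to 8.40). Whether such shares differ was not tested, since the cells of 1 library are not replicates.

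The make-up of the receptor UMIs set the gates apart. Clec4d gave 26.6% of the 8 receptors' UMIs in control neutrophils (22.1 to 31.5) and 40.0% on day 7 (37.9 to 42.0). In monocytes Clec4a3 gave 29.2% in control (26.5 to 32.1) and 12.0% on day 7 (10.9 to 13.3), while Clec4d went from 3.63% to 16.3% and Fcgr1 from 13.6% to 19.0%. In wound macrophages Clec4n went from 5.21% (4.05 to 6.60) to 20.4% (18.7 to 22.2). In Kupffer cells Fcgr4 gave 22.3% in control (20.7 to 24.0), 16.4% on day 1 (14.9 to 18.0) and 13.4% on day 7 (10.0 to 17.3).

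The balance of activating to inhibitory IgG receptors was followed as the share of Fcgr1, Fcgr3 and Fcgr4 in their UMIs plus those of Fcgr2b. Since UMIs mark transcript ends and were not divided by length, these shares compare cells and not the levels of the genes. Over all cells the share was 71.8% in control (70.6 to 72.9), 43.9% on day 1 (42.5 to 45.4) and 74.0% on day 7 (72.9 to 75.1). Fcgr2b was highest in the sinusoidal endothelial gate, at 887 CPM in control and 929.9 on day 1, where the activating share was 14.7% and 13.4%, and this gate held 11.0% of cells in control, 28.4% on day 1 and 0.853% on day 7. In Kupffer cells the activating share was 95.2% in control (94.0 to 96.2), 82.0% on day 1 (79.9 to 83.9) and 90.2% on day 7 (84.6 to 94.3). Fcgr2b was at 55.9, 185 and 128 CPM in these cells, and at 28.3, 97.4 and 82.9 in T cells of the same libraries; the part of free RNA in the difference was not tested. In the neutrophil gate on day 1 the share was 47.5% (31.5 to 63.9), from 19 activating and 21 Fcgr2b UMIs. In wound macrophages the share was 79.0% in control (76.1 to 81.8) and 70.2% on day 7 (67.5 to 72.8), with Fcgr2b 3.57-fold higher (2.97 to 4.30) in the second.

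**Figure D4:**
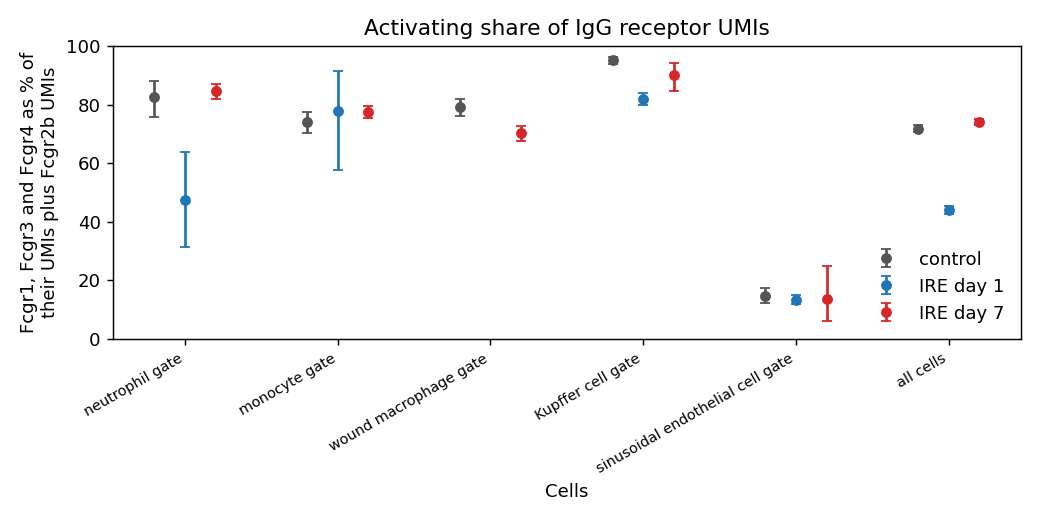
Share (%) of Fcgr1, Fcgr3 and Fcgr4 UMIs in the sum of these and Fcgr2b UMIs, by gate and over all cells, for the 3 libraries, with exact 95% binomial intervals. The share over all cells is 43.9% on day 1 against 71.8% and 74.0% in the other libraries, and the endothelial gate lies between 13.4% and 14.7%.

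Genes around the members were read from 4 lists. Their counts on day 7 are to be read against 8.79% of 12074 genes at least 2-fold higher than control and 26.3% lower. Of 14 other lectin receptors with at least 20 UMIs, 1 was at least 2-fold higher on day 7 than in control and 9 were lower, with a median log2 ratio of -1.46. Those lower with the most UMIs were Clec4f (0.180 times control), the mannose receptor Mrc1 (0.267), Clec4g (0.137), Clec12a (0.453) and Clec1b (0.256), followed by Clec4b1 (0.354), Clec9a (0.185), Mgl2 (0.374) and Ly75 (0.243). The higher gene was Clec5a, an activating lectin that signals through Tyrobp, at 26.0 CPM in control, 4.42 on day 1 and 206 on day 7 (7.93-fold, 6.77 to 9.33). Clec4f, Clec4g, Clec9a and Mgl2 are markers of gates for Kupffer, endothelial and dendritic cells. Of 8 other Fc receptors 1 was higher, the inhibitory Fcgr2b (2.54-fold), and 4 were lower, namely the neonatal receptor Fcgrt at 0.234, the polymeric immunoglobulin receptor Pigr at 0.101, the IgM receptor Faim3 at 0.165 and the IgE receptor Fcer2a at 0.314 times control. On day 1, 6 of these 8 were at least 2-fold higher than control, against 13.6% of 12988 genes, with Pigr at 8.46 and Fcgrt at 2.06 times. Hepatocyte markers were highest in that library, and their part in the result was not tested.

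Of 19 adaptors and kinases, 3 were at least 2-fold higher on day 7 than in control and 2 were lower, against 8.79% and 26.3% of all genes. Their median log2 ratio was 0.47. Tyrobp (DAP12), the adaptor of Clec5a, was at 1458 CPM in control, 946 on day 1 and 3159 on day 7, a ratio of 2.17, and the others were the Src family kinase Fgr (2.28) and Bcl10 (2.19), which forms a complex with Card9. The lower pair were Blnk (0.216), an adaptor of B cells, and Src (0.419, from 4 and 25 UMIs). Syk was at 118, 96.3 and 229, a ratio of 1.94, and Card9 at 9.23, 3.60 and 15.4, a ratio of 1.66. Of 11 phosphatases and inhibitory receptors 2 were higher, Lilrb4 (7.28-fold) and Cd300lf (7.62-fold), and 1 was lower, Clec12a (0.453 times control). The medians of both lists were above that of all genes, -0.29, and below that of the members, 1.76.

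Across 36 sums of a gated class in a library with at least 20000 UMIs, the genes most like each member were named by Pearson's r of log2(CPM + 10), among 8025 genes. The sums share 3 libraries, so that r is a description. Clec4d was most like Osm (0.933), Slfn4 (0.929) and Ccr1 (0.929), and Clec4e most like 1810033B17Rik (0.944), Ccr1 (0.935) and Clec5a (0.929). Clec4n was most like Ccl6 (0.919) and Hmox1 (0.893). Fcgr1 and Clec4a3 were each other's nearest gene (0.892), followed for Fcgr1 by Hmox1 (0.876) and Ms4a6d (0.856) and for Clec4a3 by Ms4a6c (0.858) and Lyz2 (0.838). Clec4a2 was most like Ms4a6d (0.884), Ctss (0.870) and Lyz2 (0.860), Fcgr3 most like Pla2g7 (0.876), Cd300lb (0.871) and Emilin2 (0.864), and Fcer1g most like Cd68 (0.874) and Ctsc (0.856). The 3 genes most like Fcgr4 included Wfdc17 (0.801) and Slc11a1 (0.794). Between members r ranged from 0.503 for Clec4a3 and Clec4d to 0.892.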

How the data were processed

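UMIs were counted in 3 Drop-seq libraries of mouse liver cells, each pooled by the authors from 3 livers. The deposited tables hold counts of UMIs per gene and cell barcode, made by the authors with DigitalExpression from reads of mapping quality 10 or more that, per the file headers, lay on the strand of the gene in coding sequence or UTRs. The submitters' processing notes name STAR 2.5.2a and hg19, a human build, so that counts were given no coordinates. By the headers a barcode needed 200 genes, but some in the tables had as few as 11. Barcodes with at least 200 genes were used as cells, and the others to set the marker threshold of the gates, while free RNA was gauged from T cells. For S100a8 that threshold was 4456 CPM in control, 347 on day 1 and 44662 on day 7. No doublet caller was run, and the 5% deepest cells were left out as an alternative. Within the last 500 bases of their longest coding transcript, none of the 9 members shared a window of 50 bases with another gene.

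UMIs were summed over a library or gate and divided by its total. A gate needed at least 3 markers of 1 of 21 classes and more than of any other class, each marker above its share in barcodes under 200 genes. Cells with at least 20% of their UMIs from hepatocyte markers were gated as hepatocytes (0, 10 and 0 cells). The condition on that share was chosen after seeing the data. A ratio counted as past 2-fold where the pair held at least 20 UMIs. Cells were thinned to 300 UMIs for shares. All members were named, with the 3 genes most like each among genes with at least 200 UMIs, and other pathway genes past 2-fold with at least 50 UMIs or paired with a member; Src was named after its values were seen. Some of the genes most like a member are not reported here. The members and gene lists were chosen with earlier results of these data known. Python 3.11.15, numpy 2.4.6, scipy 1.17.1 and matplotlib 3.10.9 were used. The 2-fold call and the intervals of levels and ratios were tested on simulated library sums. The gates, the excess over T cells, the thinning and the likeness were not simulated. Alternatives were the minimum of genes per barcode, the mitochondrial share, the scaling, the deepest cells, the fold, the gate rule and the thinning.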

Additional observations from a re-analysis of the deposited data

Results flagged for a closer look

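Barcodes with fewer than 200 detected genes entered no comparison of cells, yet all 9 members were counted there on day 7 above the level of the same barcodes in control by the interval of the ratio, as were 36.1% of 8494 genes. These barcodes held 20.1% of the UMIs in control, 28.7% on day 1 and 33.2% on day 7. Clec4d was at 1433 CPM (UMIs per 1000000 UMIs) there on day 7 against 68.9 in control, a ratio of 20.8 (17.5 to 24.9). Clec4e was at 487 against 67.9, Clec4n at 355 against 38.6, Clec4a2 at 101 against 45.6 and Clec4a3 at 131 against 94.6. Among the Fc receptors Fcgr3 was at 939 against 104, Fcgr1 at 197 against 44.1 and Fcgr4 at 191 against 68.4 CPM. Fcer1g was at 2619.9 against 473, a ratio of 5.54 (5.16 to 5.95). The neutrophil transcript S100a8 was at 44662 CPM in the same barcodes on day 7 and at 4456 in control, and in cells at 19867 and 1829.7. On day 7 Clec4d, Clec4e and Fcgr3 were also higher in these barcodes than in cells, where they were at 919, 335 and 804. The other members were lower in these barcodes than in cells. Whether these barcodes held free RNA or shallow cells was not tested.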

How the results depend on the processing

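The members' sum was below control on day 1 and above control and day 1 on day 7 under every alternative run. Its ratios (day 1 to control, day 7 to control and day 7 to day 1) were 0.697, 3.45 and 4.95. They became 0.588, 3.65 and 6.20 without Fcer1g, 0.724, 3.11 and 4.29 for at least 400 genes, 0.811, 3.02 and 3.72 for at most 20% mitochondrial UMIs, 0.732, 2.86 and 3.90 without mitochondrial and hepatocyte marker UMIs, 0.671, 4.09 and 6.10 by median of ratios, and 0.745, 2.82 and 3.79 with gates weighted as in control (6 classes, 77.7% of control UMIs). For at least 100 genes, and for every barcode, the ratios on day 7 were 3.76 and 5.45, and without mitochondrial UMIs 2.86 and 4.04. Without the 5% deepest cells they were 0.727 to control on day 1 and 3.53 on day 7. At 1.5-fold 7 members were lower on day 1 in place of 2, a count that has no share of all genes at 1.5-fold beside it and is not read further. Of the 9 members past 2-fold from day 1 to day 7, 7 were for at most 20% mitochondrial UMIs, without mitochondrial UMIs, and without mitochondrial and hepatocyte marker UMIs. The cause of these differences was not tested. Of 243 values of single members 115 moved beyond their intervals and 0 changed direction past 2-fold. Of 748 values within gates 38 moved, and 1 turned: Clec4n in monocytes on day 1 was 2.01 times control from 6 UMIs, and 0.786 times among cells with at most 20% mitochondrial UMIs. Shares depend on thinning by construction. Alternatives of the gate rule (any marker UMI, a lead of 2 markers, the T cell level subtracted) were chosen after seeing the data. No paired analysis was possible because each condition had 1 library, and for the same reason no replicate could be left out.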
